A study of Mus musculus with 10 samples.

Results

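The 9 transcription factors Foxf1, Foxf2, Foxl1, Barx1, Nkx2-3, Isl1, Hand1, Hand2 and Tcf21, which mark the mesenchyme of the gut and biliary wall, are described here in the gallbladder and cystic duct of mouse embryos at 15 days post coitum. They were chosen by name, and every probe set assigned to 1 of them alone was used, which gave 18 probe sets for 9 of the 18193 genes that the arrays read with a probe set of their own. A probe set is a group of short oligonucleotides on an Affymetrix array, and its value is a log2 signal. Of the 18 probe sets, 12 passed a filter on low mean signal over the samples and were tested, and these cover 7 of the 9 genes; both probe sets of Foxf2 and both of Isl1 lay under it and are described separately.

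The 10 samples form 5 groups of 2 biological replicates: wild type cystic duct of ICR, Sox17+/- and wild type gallbladder of B6, and Sox17+/- and wild type gallbladder of ICR. ICR is an outbred stock and B6 an inbred strain. The gene Sox17 codes for an endodermal SRY-box factor required for gallbladder formation, and the labels give the Sox17+/- genotype without describing the altered allele. The cystic duct is the tube between gallbladder and bile duct, no other treatment or allele is labelled, and no label says whether a sample pooled several embryos or which litter it came from.

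The wall of the gallbladder and ducts consists of an epithelium of endodermal origin wrapped in mesenchyme that becomes smooth muscle and connective tissue. In the gut, the epithelium secretes Hedgehog ligands, the mesenchyme carries their receptor Ptch1, and the forkhead genes Foxf1, Foxf2 and Foxl1 are among the genes that the signal turns on there. Mice with 1 inactive copy of Foxf1 have small, malformed gallbladders. Barx1, Nkx2-3 and Isl1 are homeodomain factors that mark regions of gut mesenchyme (stomach for Barx1, intestine and spleen for Nkx2-3, the pyloric region for Isl1), and Hand1, Hand2 and Tcf21 are basic helix-loop-helix factors of visceral mesoderm that bind E-boxes.

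Some samples stood apart before any comparison was made. The cystic duct pair correlated at r = 0.889 over the 24461 tested probe sets and differed by more than 1 log2 unit in 6259 of them, against r = 0.960 to 0.995 and 29 to 1108 probe sets in the gallbladder pairs. Wild type ICR gallbladder replicate 1 had 754 probe sets more than 1 log2 unit below all 7 other gallbladder samples, while no other gallbladder sample had more than 40. Its Pdgfra signal, a fibroblast receptor, was 7.55 against 9.96 in replicate 2, and its Lum signal, a collagen-binding matrix protein, was 10.95 against 13.27, while the other 6 fibroblast markers were closer, from Col1a2 at 14.85 in both replicates to Col1a1 at 12.42 and 12.69. Sox17 itself ran from 7.65 to 8.03 in the 4 Sox17+/- gallbladders and from 9.04 to 9.52 in the 4 wild type gallbladders. Among epithelial markers Epcam ran from 11.10 to 12.12 over all samples and Krt8 from 8.20 to 11.99. The wild type ICR gallbladder pair had Krt8 at 8.20 and 10.77, so wide gaps in this pair were not confined to fibroblast markers. Krt19 averaged 9.09 in cystic duct and 10.24 in wild type ICR gallbladder. Sox9 averaged 7.80 in Sox17+/- and 6.39 in wild type gallbladder of B6, and 8.22 in Sox17+/- and 7.16 in wild type gallbladder of ICR. A tested probe set was present for 8 of 8 fibroblast markers and 10 of 10 smooth muscle markers.

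Of the 12 tested probe sets, only Foxf1 1434939_at was lower in every Sox17+/- gallbladder than in every wild type gallbladder of the same strain. This is 1 of 12, against 6.27% of all tested probe sets, and the other Foxf1 probe set overlapped in ICR. Foxf2 and Hand1 each had a probe set under the filter, and so not tested, with the same separation. Foxf1 was also the member that was lowest in cystic duct relative to gallbladder. Its probe set 1434939_at read 9.12 and 9.13 in cystic duct. It read 9.92 and 10.23 in Sox17+/- gallbladder of B6, against 10.29 and 10.26 in wild type gallbladder of B6. It read 10.06 and 10.06 in Sox17+/- gallbladder of ICR, against 10.91 and 10.95 in wild type gallbladder of ICR. Wild type ICR gallbladder thus stood above every other group, cystic duct stood below every other group, and the 2 Sox17+/- groups overlapped each other.

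In Sox17+/- gallbladder over both strains, the Foxf1 signal was 69.1% of wild type (95% interval 60.6 to 78.7), a log2 difference of -0.53 (SE 0.08), and the limma adjusted p over all tested probe sets was 0.0752, which misses the threshold of 0.05. Of all tested probe sets, 6.27% were likewise lower in every Sox17+/- sample of both strains. Within B6 the difference was -0.20 (SE 0.11, limma adjusted p = 1), and within ICR it was -0.87 (SE 0.11, limma adjusted p = 0.0993), where Foxf1 stood at 54.7% of wild type (95% interval 45.5 to 65.9). The B6 difference minus the ICR difference was 0.67 (SE 0.16), with a limma p of 0.00398 before and 0.817 after adjustment over all tested probe sets, so a difference between strains was not shown at that threshold. Without wild type ICR gallbladder replicate 1, the sample that stood apart, the ICR value was -0.89. Without replicate 2 it was -0.85, and that fit left replicate 1 alone in its group.

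The other Foxf1 probe set, 1423013_at, read 6.12 and 7.77 in cystic duct, a gap wider than any between group means. In Sox17+/- gallbladder of B6 it read 6.90 and 7.51, against 7.74 and 7.65 in wild type. In Sox17+/- gallbladder of ICR it read 7.02 and 6.63, against 7.58 and 6.97 in wild type, so the ICR groups overlapped. The B6 groups did not, as in 23.5% of all tested probe sets with Sox17+/- lower. Its genotype difference over both strains was -0.47 (SE 0.20, limma adjusted p = 0.495), in the same direction as 1434939_at, and its difference between cystic duct and gallbladder was -0.33 (95% interval -1.49 to 0.83).

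**Figure D1:**
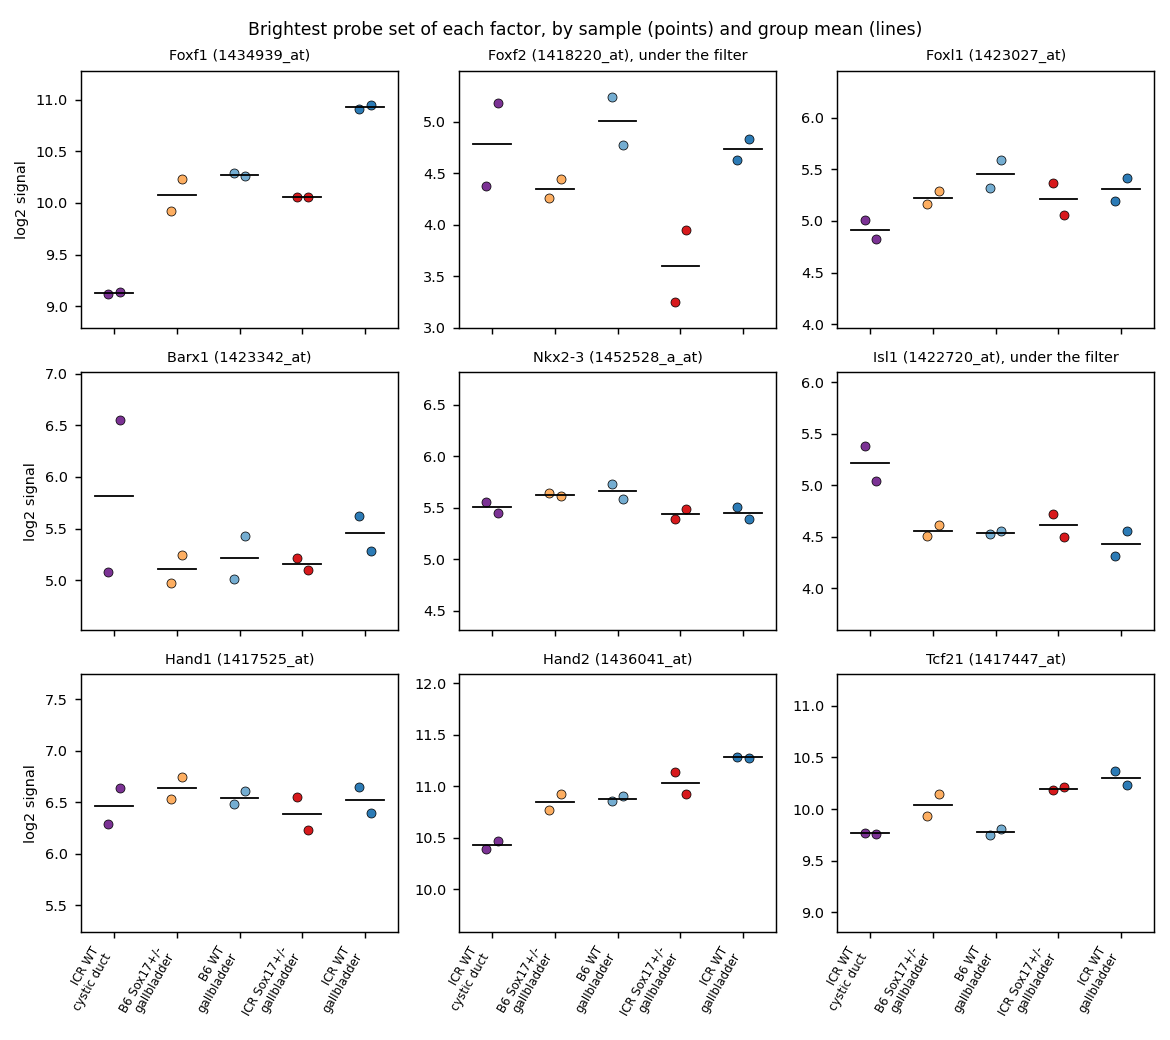
Log2 signal (vertical axis, with the same span in each panel) of the probe set with the highest mean of each of the 9 factors; points are samples, lines are means of the 2 replicates, and the horizontal axis gives the group. Foxf1 lay at 9.12 and 9.13 in cystic duct and at 10.91 and 10.95 in wild type ICR gallbladder, while the genotype groups of the Hand1 probe set shown overlapped in both strains.

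Foxf2, the paralogue of Foxf1 that is also expressed in gut mesenchyme, had mean signals under the filter of 4.81 on both probe sets, with single samples above it on 1418220_at, and no detection call accompanies the values, so whether these signals exceed background was not determined. Its probe set 1418220_at read 4.26 and 4.44 in Sox17+/- gallbladder of B6, against 5.24 and 4.78 in wild type. In Sox17+/- gallbladder of ICR it read 3.25 and 3.95, against 4.63 and 4.83 in wild type, and in cystic duct it read 4.37 and 5.18. Every Sox17+/- gallbladder was therefore below every wild type gallbladder of its strain, as were 5.42% of all 34945 single-gene probe sets without a filter. With no filter, the genotype difference over both strains was -0.90 (SE 0.18), with a limma p of 0.00115 before and 0.165 after adjustment over the 34945 probe sets, of which 0.157% passed. The other Foxf2 probe set, 1447562_at, read 3.81 to 4.11 over all 10 samples, with a genotype difference of -0.05 (SE 0.10) and overlapping groups.

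The RefSeq window of 250 bases before the start of Foxf2 (build GRCm38.p6, chr13:31625566-31625815, plus strand) is shown because Foxf2, like Foxf1, had all Sox17+/- samples below wild type. The capitals mark an E-box (CANNTG), the element bound by the Hand and Tcf21 factors, 38 bases before the start:
Foxf2: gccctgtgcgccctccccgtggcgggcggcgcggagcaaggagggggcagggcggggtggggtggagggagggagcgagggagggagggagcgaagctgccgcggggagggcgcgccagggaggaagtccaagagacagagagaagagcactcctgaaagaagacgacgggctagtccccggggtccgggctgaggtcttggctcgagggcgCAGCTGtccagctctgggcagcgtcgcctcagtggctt

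Foxl1, a forkhead gene of the mesenchyme directly under the gut epithelium, lies close to Foxf1 on the same chromosome. Its probe set 1423027_at read 5.01 and 4.82 in cystic duct. It read 5.16 and 5.29 in Sox17+/- gallbladder of B6, against 5.32 and 5.59 in wild type. In ICR it read 5.37 and 5.06 in Sox17+/- gallbladder, against 5.20 and 5.42 in wild type. The cystic duct samples were below both wild type ICR gallbladders, as were 28.9% of all tested probe sets. The difference of -0.39 (SE 0.21) had a limma adjusted p of 0.254. The genotype difference over both strains was -0.17 (95% interval -0.45 to 0.12), with overlapping groups in ICR and separate ones in B6.

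Hand2, a factor of lateral plate and visceral mesoderm and of enteric neurons, was lower in cystic duct than in gallbladder. Its probe set 1436041_at read 10.39 and 10.47 in cystic duct, against 11.28 and 11.28 in wild type ICR gallbladder. The cystic duct signal was 55.5% of gallbladder (95% interval 45.7 to 67.6), a log2 difference of -0.85 (SE 0.12, limma adjusted p = 0.00707). In Sox17+/- gallbladder of B6 it read 10.77 and 10.93, against 10.85 and 10.91 in wild type, and the groups overlapped. In Sox17+/- gallbladder of ICR it read 11.14 and 10.92, both below wild type of that stock, as in 21.8% of all tested probe sets. The ICR difference was -0.25 (SE 0.10), with a limma p of 0.0438 before and 0.39 after adjustment.

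The other Hand2 probe sets gave the same direction in cystic duct without passing the test. Probe set 1422221_at read 5.16 and 4.61 in cystic duct, against 5.62 and 5.67 in wild type ICR gallbladder (log2 difference -0.76, SE 0.27, limma adjusted p = 0.112). Probe set 1443854_at read 4.16 and 4.28 in cystic duct, against 4.86 and 4.88 in wild type ICR gallbladder (-0.65, SE 0.20, limma adjusted p = 0.0788). Both cystic duct samples of 1443854_at lie below the filter level of 4.81, which it passed through the gallbladders. On each of the 3 probe sets both cystic duct samples were below both wild type ICR gallbladders, as were 28.9% of all tested probe sets. Over both strains the genotype differences of these 2 were -0.11 (95% interval -0.45 to 0.23) and 0.10 (95% interval -0.18 to 0.38).

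Tcf21, a factor of spleen, kidney and lung mesenchyme that also marks fibroblasts, was lower in cystic duct by its probe set 1417447_at, which read 9.77 and 9.76 there, against 10.37 and 10.23 in wild type ICR gallbladder. The cystic duct signal was 69.0% of gallbladder (95% interval 56.3 to 84.6), a log2 difference of -0.54 (SE 0.13, limma adjusted p = 0.0357). This call held under 5 of 18 alternatives: the adjusted p was 0.16 without wild type ICR gallbladder replicate 1 and 0.0671 with samples centred on their medians. By genotype it read 9.93 and 10.15 in Sox17+/- gallbladder of B6 against 9.75 and 9.80 in wild type. In ICR the Sox17+/- gallbladders had 10.18 and 10.21, against 10.37 and 10.23 in wild type, so the genotypes were separate in both strains, in opposite directions. Of all tested probe sets, 18.6% were higher in Sox17+/- without overlap in B6, and 21.8% were lower without overlap in ICR. The differences of 1417447_at were 0.26 (SE 0.10) in B6 and -0.10 (SE 0.10) in ICR, with limma adjusted p = 0.997 and 0.734.

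The other Tcf21 probe set, 1458887_at, read 4.79 and 4.43 in Sox17+/- gallbladder and 4.61 and 4.61 in wild type gallbladder of B6, against 5.57 and 5.32 in Sox17+/- gallbladder and 5.79 and 5.29 in wild type gallbladder of ICR. All 4 B6 samples were below all 4 ICR gallbladders and below the filter level of 4.81, which the probe set passed through its ICR and cystic duct signals. In cystic duct it read 5.73 and 6.17, a difference of 0.41 (SE 0.26, limma adjusted p = 0.317) from gallbladder, opposite in sign to 1417447_at.

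The windows of 250 bases before the start of Hand2 (chr8:57320733-57320982, plus strand) and of Tcf21 (chr10:22820144-22820393, minus strand), from RefSeq on GRCm38.p6, are shown because each gene has a probe set that fell in cystic duct (1 of 3 tested for Hand2, 1 of 2 for Tcf21). Capitals mark E-boxes, of which Hand2 has 2, at 246 and 235 bases before its start, and Tcf21 has none:
Hand2: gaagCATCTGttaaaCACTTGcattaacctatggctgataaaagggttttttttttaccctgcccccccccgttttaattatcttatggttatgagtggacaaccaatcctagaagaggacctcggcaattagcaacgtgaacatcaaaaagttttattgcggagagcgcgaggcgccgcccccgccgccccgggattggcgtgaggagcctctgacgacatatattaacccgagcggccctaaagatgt
Tcf21: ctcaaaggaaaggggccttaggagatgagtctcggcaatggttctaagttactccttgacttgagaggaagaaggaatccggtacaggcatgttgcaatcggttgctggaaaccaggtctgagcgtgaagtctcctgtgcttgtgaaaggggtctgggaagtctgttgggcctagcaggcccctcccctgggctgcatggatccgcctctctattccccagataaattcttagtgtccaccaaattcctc

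Of the 9 genes, 6 matched the RefSeq promoter table (Foxf2, Barx1, Nkx2-3, Isl1, Hand2 and Tcf21), and Foxf1, Foxl1 and Hand1 did not. The E-box CANNTG, searched on both strands, was in 66.2% of all 32817 windows of this length. The GLI core GACCACCCA, bound by the transcription factors of the Hedgehog pathway, was in 0.225% of them, and the forkhead motif GTAAACA was in 3.16%. Neither of these last motifs was in any of the 6 windows, which says only that the letters are not there.

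Hand1, the paralogue of Hand2, passed no test. Its tested probe set 1417525_at read 6.29 and 6.63 in cystic duct, 6.53 and 6.75 in Sox17+/- and 6.48 and 6.61 in wild type gallbladder of B6, and 6.55 and 6.23 in Sox17+/- and 6.64 and 6.40 in wild type gallbladder of ICR. On this probe set the genotypes overlapped in both strains, as did cystic duct and wild type ICR gallbladder. The cystic duct difference was -0.06 (95% interval -0.59 to 0.48), and the genotype difference over both strains was -0.02 (95% interval -0.30 to 0.26). Probe set 1448750_at had a mean under the filter and read 4.10 to 4.83. On it every Sox17+/- gallbladder was below every wild type gallbladder of its strain, as were 5.42% of all 34945 single-gene probe sets without a filter. Probe set 1448750_at read 4.10 and 4.33 in Sox17+/- gallbladder of B6, against 4.62 and 4.41 in wild type. In ICR the Sox17+/- gallbladders had 4.44 and 4.17, against 4.74 and 4.45 in wild type. With no filter its genotype difference over both strains was -0.29 (SE 0.12), with a limma p of 0.0445 before and 0.558 after adjustment.

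Barx1 and Nkx2-3 passed no test. Barx1 (1423342_at) read 5.08 and 6.56 in cystic duct, against 5.62 and 5.28 in wild type ICR gallbladder, so that the cystic duct replicates lay on either side of gallbladder (log2 difference 0.36, 95% interval -0.64 to 1.37). It read 4.97 and 5.25 in Sox17+/- gallbladder of B6, against 5.01 and 5.42 in wild type. In ICR the Sox17+/- gallbladders had 5.22 and 5.10, against the same 5.62 and 5.28 in wild type. Nkx2-3 likewise had a high cystic duct replicate 2 by 1425827_at, at 6.04 against 5.17 in replicate 1 and 4.86 to 5.30 in the gallbladders. Its probe set 1452528_a_at stayed within 5.39 to 5.74 in all samples, and its probe set 1427741_x_at, of a type prone to cross-hybridization and under the filter, within 3.90 to 4.73. The genotype differences over both strains were -0.20 (SE 0.14) for Barx1 and -0.02 for both tested Nkx2-3 probe sets (SE 0.09 and 0.12).

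Isl1, with mean signals under the filter on both probe sets, had a higher signal in cystic duct than in any gallbladder. Probe set 1422720_at read 5.38 and 5.04 in cystic duct, against 4.31 and 4.55 in wild type ICR gallbladder. Probe set 1450723_at read 4.91 and 4.55 in cystic duct, against 4.35 and 4.35 in wild type ICR gallbladder. Both cystic duct samples were above both gallbladders on each, as were 19.5% of all single-gene probe sets with no filter. The differences were 0.78 (SE 0.21, limma adjusted p = 0.0616) and 0.38 (SE 0.19, limma adjusted p = 0.255) with no filter, where 6.74% of probe sets passed in either direction. In the other gallbladders 1422720_at ran from 4.50 to 4.72 and 1450723_at from 3.52 to 4.02.

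**Figure D2:**
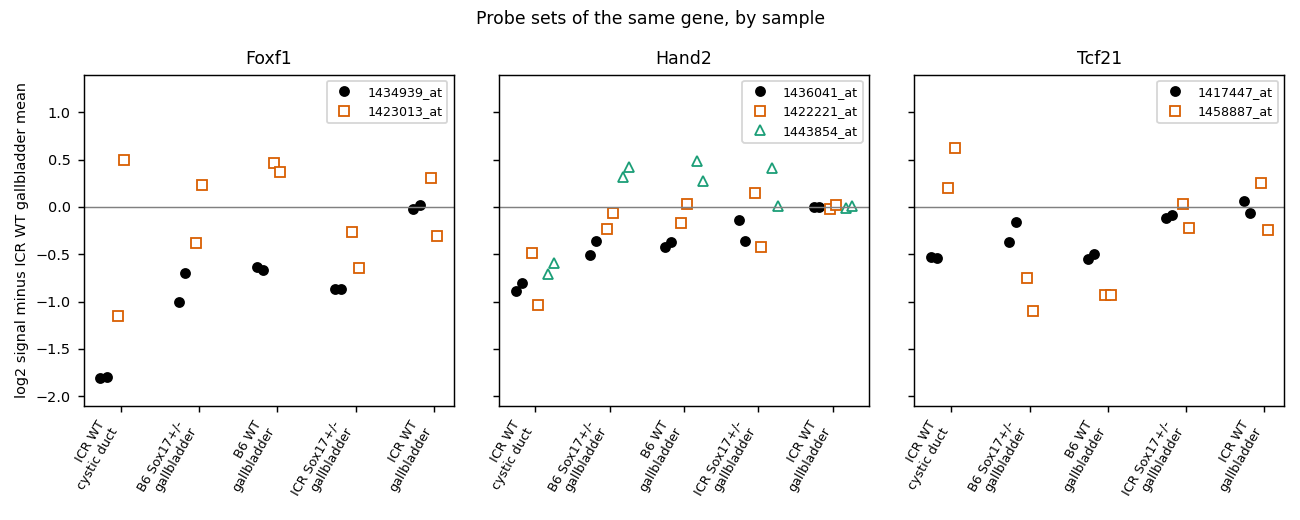
Log2 signal of each tested probe set of Foxf1, Hand2 and Tcf21 minus its own mean in wild type ICR gallbladder (vertical axis), by sample and group (horizontal axis), with 1 symbol for each probe set. The 3 Hand2 probe sets were below 0 in both cystic duct samples, while the Tcf21 probe sets lay on opposite sides of 0 there.

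Between cystic duct and gallbladder of wild type ICR, 3 of the 12 tested probe sets passed as lower (Foxf1 1434939_at, Hand2 1436041_at and Tcf21 1417447_at) and none as higher, with 5 of 12 at an unadjusted limma p under 0.05 (29.3% of all). Over all tested probe sets 11.1% passed, 7.1% as lower and 4.03% as higher. Foxf1 showed the widest gap, with cystic duct at 28.6% of gallbladder (95% interval 23.1 to 35.4), a log2 difference of -1.80 (SE 0.13, limma adjusted p = 0.0021). In 6 of the 12 probe sets both cystic duct samples were below both gallbladders, against 28.9% of all probe sets. The 6, like the 5 at an unadjusted limma p under 0.05, include every Hand2 probe set, so neither count is of separate genes. Of these, 1443854_at passed the filter through its gallbladder signals, so its lower cystic duct signal is not independent of the filter. The median difference was -0.36 over the 12, with 1443854_at among them, and -0.07 over all tested probe sets. The cystic duct replicates read nearly alike on these 3 probe sets after quantile normalization, but not as deposited, where replicates 1 and 2 had 9.24 and 8.62 for Foxf1, 10.48 and 9.96 for Hand2 and 9.88 and 9.24 for Tcf21. Without cystic duct replicate 1 Foxf1 was at -1.80 and Hand2 at -0.81, and without replicate 2 at -1.81 and -0.89. The standard errors of this comparison come from a spread shared over all 5 groups. Over all tested probe sets, replicates differed by a median of 0.104 to 0.205 log2 units in the gallbladder pairs and 0.566 in cystic duct. When the fit held only the 4 compared samples, no probe set passed, with limma adjusted p of 0.18 for Foxf1, 0.227 for Hand2 and 0.377 for Tcf21.

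Other regulators of visceral mesenchyme, from a list of 46 genes, were read beside them in cystic duct. Their median was -0.68 against -0.04 over all genes, and 2 of 38 tested genes were higher at an unadjusted limma p under 0.05. After adjustment 10 of the 38 fell and none rose, against 7.1% lower and 4.03% higher of all tested probe sets. The T-box genes Tbx4 (-1.87, SE 0.23, limma adjusted p = 0.00422) and Tbx20 (-1.72, SE 0.30, 0.0131) were among them, as were the zinc finger gene Tshz3, which acts in smooth muscle differentiation of the ureter (-1.30, SE 0.20, 0.00884), and the forkhead gene Foxp1 (-0.94, SE 0.16, 0.0129). Of 19 tested signals and receptors of mesenchyme, 5 fell and none rose, with none higher at an unadjusted p under 0.05, and Wnt5a, a secreted Wnt ligand, was at -2.43 (SE 0.22, limma adjusted p = 0.0025). Sfrp2, a secreted modulator of Wnt signals, was at -1.40 (SE 0.25, 0.0134) and the bone morphogenetic protein gene Bmp2 was also among those that fell (limma adjusted p = 0.00485).

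Markers of other cells moved with this comparison, in which 7.1% of all tested probe sets passed as lower and 4.03% as higher. The 10 smooth muscle markers summed to a linear signal of 6320 to 10711 in cystic duct, against 27009 to 28581 in wild type ICR gallbladder, and 6 of the 10 fell, among them the smooth muscle myosin Myh11 (-2.67, SE 0.24, limma adjusted p = 0.0025). The 8 fibroblast markers summed to 59917 to 89547 in cystic duct and 93722 to 101898 in gallbladder, and 3 of them fell. The hepatocyte markers, with 9 of 10 read, summed to 113586 to 141050 in cystic duct and 24763 to 32537 in gallbladder, and 8 of 9 rose. The part of these cell types in the lower Foxf1, Hand2 and Tcf21 signals was not tested, and in whole tissue fewer mesenchymal cells and less RNA per cell cannot be told apart.

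**Figure D3:**
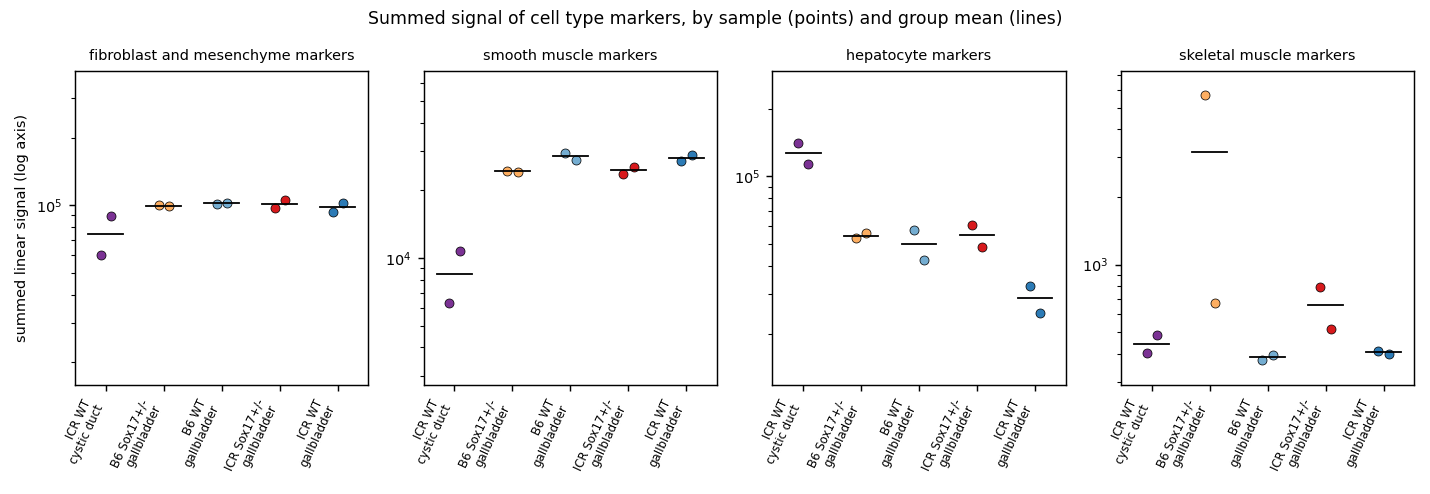
Summed linear signal of 4 lists of cell type markers (vertical log axis), by sample (points) and group mean (lines), with groups on the horizontal axis. Smooth muscle markers were lowest in cystic duct (6320 to 10711) and hepatocyte markers highest there (113586 to 141050), and 1 Sox17+/- gallbladder of B6 reached 5662 in skeletal muscle markers.

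By Sox17 genotype, none of the 12 tested probe sets passed. Over both strains 2 of 12 had an unadjusted limma p under 0.05 (both of Foxf1), against 9.9% of all tested probe sets, and after adjustment 0.135% of all passed. In B6, 1 of 12 did so before adjustment (Tcf21 1417447_at), against 4.95% of all, and 0.0123% of all passed after it. In ICR, 2 of 12 did so before adjustment (Foxf1 1434939_at and Hand2 1436041_at), against 12.4% of all, and 0.0491% of all passed after it. Sox17+/- samples lay below wild type without overlap in 3 of 12 probe sets in B6 (23.5% of all probe sets) and in 5 of 12 in ICR (21.8%), and above it in 1 of 12 in B6 (18.6%). The median difference of the 12 was -0.08 over both strains, -0.03 in B6 and -0.13 in ICR, against -0.01, -0.00 and -0.03 over all tested probe sets. For the difference between strains 0 of 24461 probe sets passed by limma, while 5.79% had an unadjusted p under 0.05, as did 2 of the 12 (Foxf1 1434939_at and Tcf21 1417447_at).

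**Figure D4:**
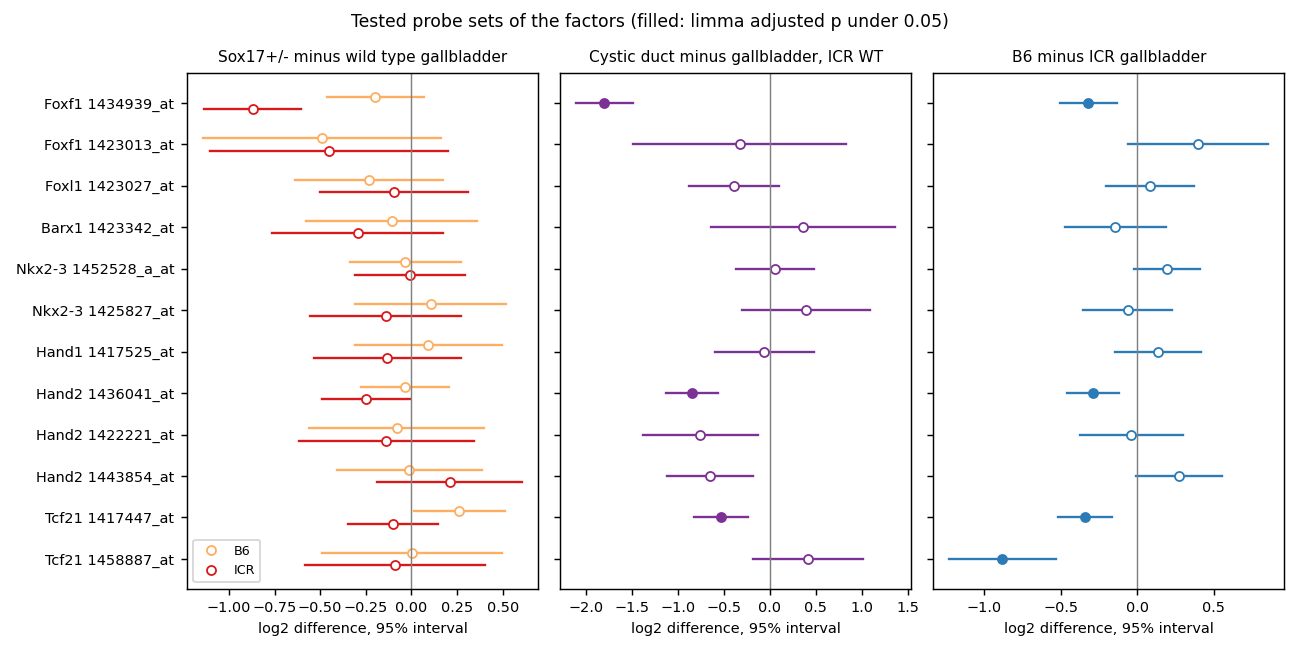
Log2 difference (horizontal axis, with 95% intervals from limma) of the 12 tested probe sets for genotype in each strain, cystic duct against gallbladder, and strain; filled circles have an adjusted p under 0.05. Foxf1 1434939_at lay at -0.87 for genotype in ICR and at -1.80 in cystic duct, and no genotype difference is filled.

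The Hedgehog pathway, which lies upstream of the forkhead members in the gut, was read on a list of 14 genes, of which 13 were tested. Over both strains 2 fell in Sox17+/- gallbladder and none rose (1 was higher at an unadjusted limma p under 0.05), while 0.135% of all tested probe sets passed. Shh, the ligand made by epithelium, read 9.11 and 9.51 in Sox17+/- gallbladder of B6, against 12.26 and 12.27 in wild type. In ICR it read 8.36 and 8.56 in Sox17+/- gallbladder, against 11.71 and 11.69 in wild type. Its Sox17+/- signal was 11.7% of wild type over both strains (95% interval 9.94 to 13.8, limma adjusted p = 0.000222). Hhip, a Hedgehog-induced decoy that sequesters the ligand at the cell surface, was at 30.9% of wild type (95% interval 24.4 to 39.1, limma adjusted p = 0.0125).

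Ptch1 and Gli1, the receptor and a transcription factor that are both induced by Hedgehog signalling in mesenchyme, did not pass. Gli1 read 7.32 and 7.61 in Sox17+/- gallbladder of B6, against 7.53 and 7.59 in wild type. In ICR it read 7.01 and 7.17 in Sox17+/- gallbladder, against 7.79 and 8.07 in wild type. Its differences were -0.10 (SE 0.16) in B6 and -0.84 (SE 0.16, limma adjusted p = 0.167) in ICR, beside -0.20 and -0.87 for Foxf1. Ptch1 stood at -0.17 (SE 0.18) in B6 and -0.82 (SE 0.18, limma adjusted p = 0.229) in ICR. In each of these 3 genes the ICR groups were separate with Sox17+/- lower, as in 21.8% of all tested probe sets. All 3 were set against the same wild type ICR gallbladders. For each of the 3 the difference between strains had limma adjusted p = 0.817.

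In cystic duct, 5 of the 13 Hedgehog genes fell and none rose, against 7.1% lower and 4.03% higher of all tested probe sets. None of the 13 was higher at an unadjusted limma p under 0.05, and the median was -0.76. Shh read 7.90 and 9.62 in cystic duct, against 11.71 and 11.69 in wild type ICR gallbladder (log2 difference -2.93, SE 0.46, limma adjusted p = 0.00884). Gli1 was at -1.66 (SE 0.23, 0.00625), Hhip at -1.68 (SE 0.28, 0.0111), Gli2 at -1.22 (SE 0.20, 0.00997) and Ptch1 at -1.19 (SE 0.27, 0.0288), the values in parentheses being limma standard errors and adjusted p. The cystic duct and the ICR genotype comparisons share the wild type ICR gallbladders, so that a high value in those samples enters both. For Foxf1 1434939_at, the cystic duct difference was -1.80 and the ICR genotype difference was -0.87.

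**Figure D5:**
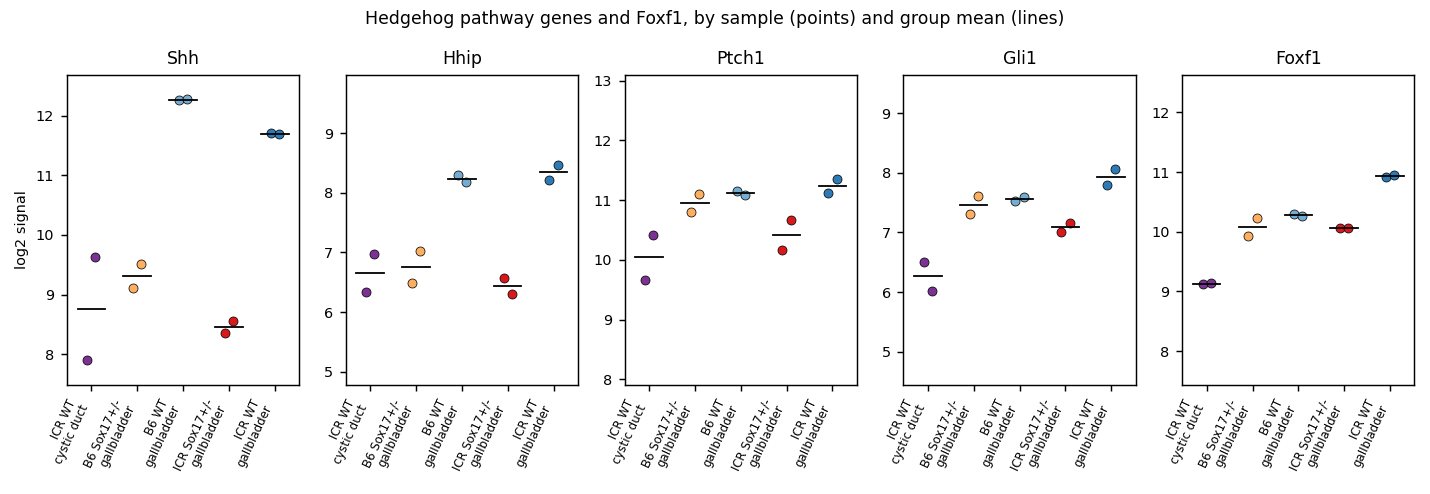
Log2 signal (vertical axis, with the same span in each panel) of Shh, Hhip, Ptch1, Gli1 and Foxf1 1434939_at, by sample (points) and group mean (lines), with groups on the horizontal axis. Shh was at 9.51 or below in Sox17+/- gallbladder and at 11.69 or above in wild type gallbladder, while Gli1 groups overlapped in B6.

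Among the other lists, none of 38 other mesenchyme regulators passed by genotype over both strains (4 lower and 1 higher at an unadjusted limma p under 0.05; median 0.00), and none of 19 mesenchymal signals did (5 lower and 2 higher; median -0.10). Of 17 smooth muscle genes none passed (8 lower and none higher at an unadjusted p under 0.05; median -0.18); Myh11 stood at -0.62 (SE 0.11, limma adjusted p = 0.111). The vascular and mesenchymal adhesion gene Vcam1 was at -0.55 (SE 0.14, 0.268), Bmp2 at -0.70 (SE 0.17, 0.249) and Msc, a basic helix-loop-helix gene of muscle progenitors, at 0.80 (SE 0.14, 0.118).

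Beside the genotype comparison, hepatocyte markers summed to 53385 to 55782 in Sox17+/- and 42493 to 57729 in wild type gallbladder of B6, and to 48642 to 60546 in Sox17+/- and 24763 to 32537 in wild type gallbladder of ICR. Smooth muscle markers summed to 24184 to 24430 and 27246 to 29396 in Sox17+/- and wild type gallbladder of B6, and to 23704 to 25368 and 27009 to 28581 in those of ICR. Fibroblast markers overlapped between genotypes in ICR, at 97229 to 105125 in Sox17+/- and 93722 to 101898 in wild type, and were 98696 to 100481 and 101087 to 102533 in B6. Skeletal muscle markers reached 675 and 5662 in the Sox17+/- gallbladders of B6, against 376 to 397 in wild type, and were 517 to 799 in Sox17+/- and 399 to 414 in wild type gallbladder of ICR. Without the sample at 5662, Sox17+/- replicate 3 of B6, Foxf1 over both strains was at -0.46 (limma adjusted p = 0.239). Erythroid markers summed to 3165 to 5332 in Sox17+/- and 2288 to 2340 in wild type gallbladder of B6, and to 2003 to 3481 in Sox17+/- and 1023 to 2234 in wild type gallbladder of ICR. None of the 4 tested erythroid markers passed over both strains, while all 4 were higher at an unadjusted limma p under 0.05 (median 0.84). The part of these markers in the Foxf1 difference was not tested.

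Between strains, 4 of the 12 tested probe sets passed as lower in B6 than in ICR gallbladder and none as higher, over Sox17+/- and wild type samples together. The strains share no replicate numbers and no label gives a batch. Strain therefore cannot be told apart from other differences between the B6 and ICR sets of samples. Over all tested probe sets 15.7% passed, 8.9% as lower and 6.76% as higher. Before adjustment 4 of 12 had a limma p under 0.05, all lower in B6, against 31.7% of all. Tcf21 1458887_at stood at -0.88 (SE 0.15, limma adjusted p = 0.00972), but its 4 B6 values lie below the filter level of 4.81, so that it was tested through its ICR and cystic duct signals and its size is uncertain. The others were smaller: Tcf21 1417447_at at -0.34 (SE 0.07, limma adjusted p = 0.0233), Foxf1 1434939_at at -0.32 (SE 0.08, 0.0381) and Hand2 1436041_at at -0.29 (SE 0.07, 0.0361). With samples centred on their medians, these 3 had adjusted p of 0.142, 0.272 and 0.264.

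The probe sets of one gene did not all share the strain difference: Foxf1 1423013_at was at 0.40 (SE 0.20, limma adjusted p = 0.212) and Hand2 1443854_at at 0.27 (SE 0.12, 0.168), both opposite in sign to the called probe set of their gene. Whether their target sequences differ between B6 and ICR was not tested. With no filter, Isl1 1450723_at was lower in B6 (-0.49, SE 0.10, limma adjusted p = 0.0167), where 12.4% of all probe sets passed, and Isl1 1422720_at was not (0.03, SE 0.10). Of the other mesenchyme regulators, 6 of 38 were lower and 1 higher in B6. Over all tested probe sets, 8.9% passed as lower and 6.76% as higher, 15.7% in all. Among the lower regulators were the nuclear receptor genes Nr2f2 (-1.01, SE 0.07, limma adjusted p = 0.000672) and Nr2f1 (-0.58, SE 0.10, 0.0117) and the zinc finger gene Osr1 (-1.60, SE 0.29, 0.0128). Leukocyte markers were higher in B6, with 4 of 5 passing and a summed signal of 3615 to 5651 in B6 gallbladders against 1303 to 2176 in ICR gallbladders.

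Across the 10 samples, the Foxf1 signal of 1434939_at ran with that of Hand2 1436041_at (Pearson r = 0.938), Foxl1 (0.683) and Tcf21 1417447_at (0.68), and against that of Isl1 1422720_at (-0.85). It showed little relation to Foxf2 1418220_at (0.044). These coefficients describe 5 groups of 2 samples and carry no test.

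Outside the 9 genes, those whose probe set with the highest mean ran most closely with Foxf1 over the 10 samples were the ephrin receptor gene Epha7 (r = 0.983), the inhibitor of apoptosis gene Birc6 (0.979) and the kinase gene Limk1 (0.976). For Hand2 they were Dab2, Niban2 and Dusp22 (0.9744 to 0.9745), and for Tcf21 they were the glutamate transporter gene Slc1a2 (0.943), the BMP antagonist gene Grem1 (0.925) and the glypican gene Gpc3 (0.909). For Barx1 they were C1ql1 (0.986), Cilp2 (0.984) and Scgn (0.982), where cystic duct replicate 2 is the highest Barx1 sample. For Foxl1 they were Map3k6 (0.913), Fam217b (0.89) and Rcbtb2 (0.889), for Nkx2-3 1452528_a_at they were Bbip1 (0.951), B3gnt2 (0.94) and Adam10 (0.923), and for Hand1 they were Oas2 (0.926), Lrfn4 (0.905) and Arih1 (0.904). These too are descriptions over samples that share their groups.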

How the data were processed

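The authors deposited 1 log2 value per probe set and sample, a unit inferred from the range of 2.20 to 15.15; the method by which the authors summarised and normalized them is not given in the sources used here. The labels' protocols name Trizol extraction and 10 ug of total RNA for biotinylated cRNA. Groups came from the titles and tissue, strain and genotype labels; the stage and genotype tags are swapped in the records, so each was read by its content. The series calls the replicates biological, but no label gives an embryo, litter or batch, so p-values measure the spread between these samples.

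Of 45101 probe sets, 64 controls were left out, and 34945 are paired with 1 gene in the platform annotation, 932 with several and 9160 with none. Because the deposited sample medians (5.51 to 6.07) and interquartile ranges (2.75 to 3.84) differed by more than 0.2, samples were quantile normalized. Single-gene probe sets under the 30th percentile of mean signal (4.81) were left out, which left 24461. The fit was limma 3.58.1 under R 4.3.3, 1 mean per group, eBayes with a trend. Genotype and strain contrasts used the 8 gallbladder samples (4 residual and 7.03 total degrees of freedom), and the cystic duct contrast used all 10 (5 and 8.01). P values were adjusted by Benjamini-Hochberg over all tested probe sets, with a threshold of 0.05. The number of arrays limits the precision.

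The members, gene lists, fits and alternatives were chosen with earlier results of these data known. All probe sets of the members are named, up to 4 genes of a list per comparison by smallest p, with Shh, Sox17, Gli1, Ptch1 and Hhip, and the 3 genes most correlated with each member; the use of Epcam, Krt8, Krt19, Sox9, Pdgfra, Lum, Col1a1 and Col1a2 as examples of levels was chosen after their values were seen. Lists were read by the probe set of each gene with the highest mean. The fits were tested on simulated data with independent noise of the spread seen within the gallbladder groups. That noise leaves out the wider spread of the cystic duct pair and any correlation between samples. Alternatives changed the scaling, filter, probe set choice, variance trend, samples fitted and replicate block, or left out 1 sample. Promoter windows came from RefSeq. Figures used Python 3.11.15, pandas 2.3.3 and matplotlib 3.10.9.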

Additional observations from a re-analysis of the deposited data

Results flagged for a closer look

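Tcf21 1417447_at was marked because every Sox17+/- gallbladder of B6 lay above the wild type gallbladders of that strain, while every Sox17+/- gallbladder of ICR lay below those of its stock. The B6 difference minus the ICR difference was 0.36 on the log2 scale, with a limma p of 0.043 before and 0.817 after adjustment over all tested probe sets. It ran from 0.23 to 0.47 over 16 alternatives, none of which called it. The other Tcf21 probe set, 1458887_at, stood at 0.09.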

How the results depend on the processing

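Counts of probe sets past the threshold moved widely with the settings. For the members, the alternatives covered the 12 tested probe sets of 7 of the 9 genes, and so not Foxf2 or Isl1. Over both strains the genotype count was 33, and it was 67 on the values as deposited, 55 with no filter, 64 with 1 probe set a gene, 2 in the fit of all 10 samples, and 3 to 1060 when 1 sample was left out (1060 without wild type ICR gallbladder replicate 2, 59 without replicate 1). In ICR it was 12, and 38 as deposited, 5 centred on medians, 19 with 1 probe set a gene, 1 with all 10 samples and 0 to 1184 with 1 sample left out. In B6 it was 3, and 5 with 1 probe set a gene, 1 with all 10 samples and 0 to 8 with 1 sample left out. The strain difference in genotype effect gave 0, and 0 to 877 with 1 sample left out, again highest without wild type ICR gallbladder replicate 2. The strain count was 3831, and 1213 with 1 probe set a gene, 1389 with all 10 samples and 1490 to 5229 with 1 sample left out. For cystic duct it was 2724, 0 in the fit of the 4 compared samples, and 774 to 11922 with 1 sample left out (11922 and 6197 without cystic duct replicates 1 and 2, 774 without wild type ICR gallbladder replicate 1). Some of these fits held fewer samples or probe sets, and the counts rose in some of them and fell in others. The cause of these shifts was not tested. Same-numbered samples had deviations correlating at 0.39 between the ICR genotype groups and at 0.306 between the B6 genotype groups. Cystic duct correlated at 0.0738 with wild type and at 0.0704 with Sox17+/- gallbladder of ICR. As the values were not above 0.1 in every pair, the numbers were not taken to pair samples. The genotype fits are therefore unpaired, although their own pairs were above 0.1. With the replicate block the counts were 13 over both strains, 1 in ICR, 0 in B6, 0 for the difference and 2090 for cystic duct; strain could not be fitted with it, since the strains share no numbers. The share of calls that were higher was 30.3%, 33.3%, 33.3%, 43.2% and 36.2% for the pooled, ICR and B6 genotype comparisons, strain and cystic duct, against 20.9%, 18.4%, 0%, 20.8% and 12.5% as deposited and 32%, 20%, 0%, 58.5% and 23.6% centred on medians; the cystic duct median of all probe sets was -0.07, -0.30 and -0.19 under these, the ICR genotype median -0.03, -0.18 and 0.02, the strain median 0.05, -0.07 and 0.13, and that of the difference between strains in genotype effect 0.02, 0.16 and -0.07.

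Foxf1 1434939_at by genotype over both strains stayed between -0.62 and -0.46 and passed under 3 of 16 alternatives. These were the values as deposited (limma adjusted p = 0.0387), 1 probe set a gene (0.0499) and the fit without wild type ICR gallbladder replicate 2. The last left replicate 1, the sample that stood apart, alone in its group. The highest limma adjusted p of Foxf1 1434939_at was 0.404. In ICR it stayed between -1.01 and -0.81 and passed under 2 of 16, among them the fit without that replicate 2. In cystic duct Foxf1 (-2.16 to -1.78) and Hand2 1436041_at (-1.22 to -0.81) passed under 17 of 18, and Tcf21 1417447_at (-0.89 to -0.47) under 5 of 18. By strain, Tcf21 1417447_at passed under 9, Hand2 under 6 and Foxf1 under 5 of 15. Over all alternatives of the tested probe sets, 965 values kept their direction and side of the threshold, 40 lost and 11 gained a call, 70 changed sign with neither value called, and no called value changed sign. In fits without a sample, the lone remaining replicate is taken to be as variable as the rest. Signals near the filter could not be set against background here.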

Other observations

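Among marker lists not described above, 2 of 4 tested erythroid markers rose in cystic duct relative to wild type ICR gallbladder, with a median log2 difference of 2.91, and 1 of 8 mesothelium markers fell, with a median of -0.37. Of 6 endothelium markers 1 fell (median -0.37), and of 4 neural crest and neuron markers 1 fell (median 0.49). Of 8 biliary epithelium markers 1 rose and 1 fell (median -0.11). In this comparison 7.1% of all tested probe sets passed as lower and 4.03% as higher. None of the 3 tested pancreas markers and none of the 3 tested stomach and intestine epithelium markers passed by limma; at an unadjusted p under 0.05 these were 0 and 2, both of the 2 lower.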
